A study of Mus musculus with 48 samples.

Results

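The insulin-like growth factor (IGF) axis was followed through *Igfbp2* and 8 partner genes, picked by GENCODE mouse symbol. The binding proteins were *Igfbp2*, *Igfbp1* and *Igfbp4*, the circulating complex was represented by *Igf1* and *Igfals*, and the receptors were *Igf1r*, *Igf2r*, *Insr* and *Ghr*. These 9 genes were all found among the 20622 genes of the cytoplasmic RNA files and among the 16269 genes with a ribosome-protected fragment (RPF) transcript. All 9 passed the filter on low counts in every comparison.

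The measurements came from livers of male mice, 2 to 4 months old, of 4 genotypes. WT mice carried no engineered allele, B mice carried a Cre-activated stabilised β-catenin (Ctnnb1ex3/+), M mice carried a Cre-activated MYC transgene (R26-LSL-MYC), and BM mice carried both. Every mouse, WT included, had received AAV8.TBG.Cre, a virus that expresses Cre from the hepatocyte promoter TBG, and was killed 4 or 10 days later. Each genotype and day had 3 mice, and each of the 24 mice gave 1 RPF and 1 RNA library from the same liver lysate. Injections were staggered to allow a common harvest of the day 4 and day 10 mice, so the time after induction and the date of injection cannot be told apart. Values below are counts scaled to a common library size by TMM, in the usual CPM unit, unless another unit is named.

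The liver is the main source of circulating IGF1, which it makes under the control of growth hormone acting through the receptor GHR. In blood IGF1 is carried by binding proteins, some of which form a long-lived complex with the acid-labile subunit encoded by *Igfals*, and IGF1 signals through the receptor kinase IGF1R, while IGF2R takes IGF2 up for degradation. IGFBP2 and IGFBP1 are secreted by hepatocytes, and the *Igfbp1* gene is known for its rapid repression by insulin and induction on fasting.

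The total was 9742197 to 14380713 RPFs and 3254141 to 6540116 RNA counts per library. RPFs of *Glul*, a β-catenin target, were at 511 to 862 CPM in WT mice and at 1630 to 5185 CPM in B and BM mice, and *Myc* RPFs were at 2.43 to 18.3 CPM in WT, 11.2 to 35.3 CPM in B and 43.6 to 164 CPM in M and BM mice. In these RPFs no mouse went against its label. *Myc* RNA, at 22.1 to 43.7 CPM in WT and 19.6 to 53.0 CPM in M and BM mice, overlapped and was called in none of the 6 comparisons with WT, so it does not check the labels. Markers of hepatocytes, such as albumin, were abundant in every library and the summed RPF level of 5 hepatocyte markers ran from 21182 CPM in a BM mouse to 83921 CPM in a WT mouse, both on day 10. In such bulk samples a smaller number of cells of a type and less RNA per cell cannot be told apart. Mouse 1 of BM day 10 stood apart from the other two BM mice, and BM day 10 calls of the 9 members that changed without it are given in both ways.

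The upstream sequences of *Igfbp2*, *Igfbp1* and *Igfals* are shown because these genes moved farthest in the mutant livers or give their name to the family described here. Each is the stretch before the annotated start of the transcript on which RPFs were counted, read 5′ to 3′ on the gene's strand from GRCm39, with motif matches in capitals. That of *Igfbp2* (chr1:72863399-72863605, plus strand) ends where an exon of another *Igfbp2* transcript begins. Those of *Igfbp1* (chr11:7147401-7147650, plus strand) and *Igfals* (chr17:25096929-25097178, plus strand) are 250 bases long, and the last overlaps an exon of the non-coding gene *Gm41549*.
Igfbp2: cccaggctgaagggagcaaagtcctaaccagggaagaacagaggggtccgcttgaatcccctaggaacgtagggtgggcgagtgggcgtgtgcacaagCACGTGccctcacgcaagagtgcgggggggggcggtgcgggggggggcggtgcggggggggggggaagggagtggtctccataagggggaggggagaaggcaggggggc
Igfbp1: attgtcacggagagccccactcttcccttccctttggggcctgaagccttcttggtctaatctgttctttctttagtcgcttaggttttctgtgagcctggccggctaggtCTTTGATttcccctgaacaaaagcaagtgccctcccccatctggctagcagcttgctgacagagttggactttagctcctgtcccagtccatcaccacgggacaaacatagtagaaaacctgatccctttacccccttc
Igfals: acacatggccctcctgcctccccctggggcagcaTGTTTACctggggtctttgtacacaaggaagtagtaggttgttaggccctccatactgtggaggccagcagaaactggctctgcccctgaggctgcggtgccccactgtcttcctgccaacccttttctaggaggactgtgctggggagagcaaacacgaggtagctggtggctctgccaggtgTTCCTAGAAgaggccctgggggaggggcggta

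The motifs were searched on both strands of the 250 bases before the counted transcript, and none of the matches overlapped another. The *Igfbp2* window held CACGTG, the E-box that MYC can bind, at bases -152 to -147 from the start, and the *Igf2r* window held it at -27 to -22. The *Igfbp1* window held the TCF/LEF letters CTTTGAT at -139 to -133, and the *Ghr* window held CTTTGAA at -105 to -99. The *Igfals* window held TTCNNNGAA, the spacing that STAT5 prefers, at -32 to -24, and the forkhead letters GTAAACA on the other strand at -216 to -210. Among 16223 windows of the same length before protein-coding genes, CACGTG was found in 6.37%, CTTTGAT in 2.98%, CTTTGAA in 4.57%, TTCNNNGAA in 7.3% and GTAAACA in 2.98%. The insulin-response letters CAAAACA, present in 6.78% of these windows, were in none of the 9. These are matches of letters, and binding was not measured.

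*Igfbp2* (ENSMUSG00000039323, chr1:72863606-72891634, plus strand) encodes the binding protein after which this set is named. On day 4 its RPFs were higher than WT in B livers, lower than WT in BM livers and not distinguishable from WT in M livers, and on day 10 they were lower than WT in B and BM livers. The WT mice of day 4 stood at 372, 313 and 321 CPM. The B mice of day 4 stood at 414, 401 and 449 CPM, all above WT, and the M mice at 383, 379 and 305 CPM, overlapping WT. The BM mice of day 4 stood at 270, 240 and 207 CPM, all below every WT mouse. In the quasi-likelihood test of edgeR, with p-values adjusted by Benjamini-Hochberg over all genes, the log2 difference from WT was 0.31 ± 0.09 (SE, n = 3, adjusted p = 0.064) in B, 0.12 ± 0.11 (adjusted p = 0.46) in M and -0.46 ± 0.11 (adjusted p = 0.0044) in BM, with calls made at adjusted p under 0.1. The B call of day 4 was lost without mouse 2 or 3 of WT or mouse 3 of B (adjusted p = 0.16 to 0.21), at differences of 0.27 to 0.28. In 1 fit over all 24 mice neither *Igfbp2* call of day 4 passed, with 0.33 in B (adjusted p = 0.77) and -0.49 in BM (adjusted p = 0.29).

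On day 10 the WT mice stood at 341, 356 and 411 CPM of *Igfbp2* RPFs and the M mice at 304, 381 and 323 CPM, again overlapping. The B mice stood at 117, 100 and 284 CPM and the BM mice at 64.0, 195 and 219 CPM, all below every WT mouse. In B the third mouse lay far closer to WT than to the other two, and in BM the first mouse lay far below the rest. The day 10 mean of B was 2.21-fold below WT, with a log2 difference of -1.15 ± 0.35 (SE, n = 3, adjusted p = 0.052), and that of BM was 2.31-fold below WT, with -1.22 ± 0.40 (adjusted p = 0.047). Without mouse 1 of BM day 10 the difference of *Igfbp2* was -0.84 (adjusted p = 0.00033). Each comparison with WT was refitted in 11 alternative settings, 6 of which left out 1 mouse. The B call of *Igfbp2* was lost without mouse 1 or 3 of WT or without mouse 1 or 2 of B, with differences from -1.22 to -0.88 and adjusted p up to 0.15. The BM call was lost without any 1 of the 3 WT mice, with differences from -1.28 to -1.14 and adjusted p up to 0.13.

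**Figure D1:**
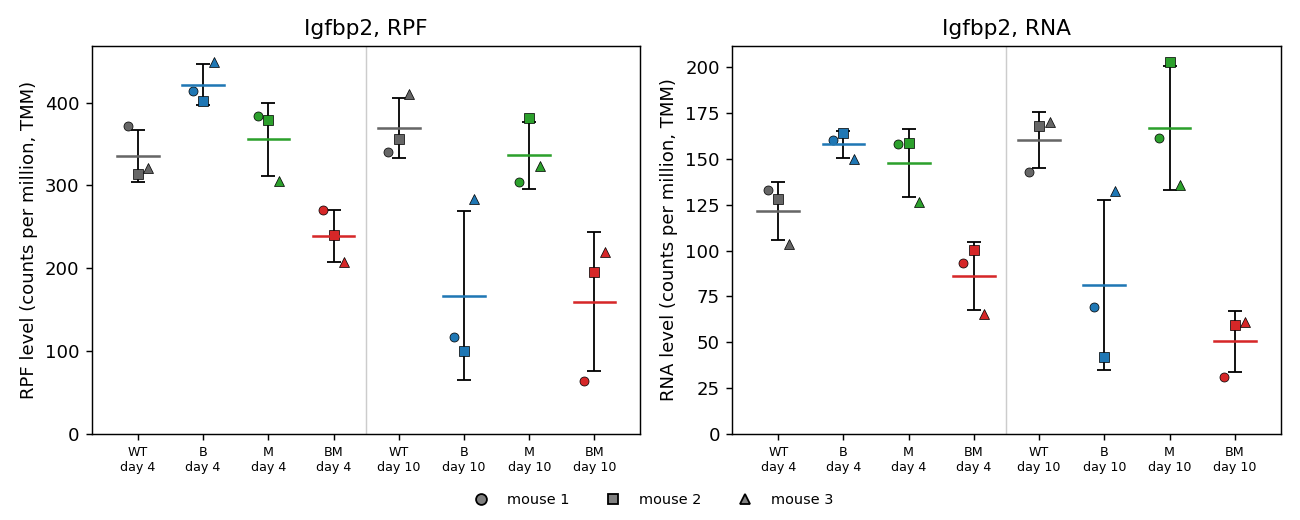
*Igfbp2* RPF and RNA levels in CPM (linear axes from 0) for every mouse of the 4 genotypes on day 4 and day 10, with the mean and SD of the 3 mice of each group. All BM mice on both days and all B mice of day 10 lie below the WT mice of the same day, and the B mice of day 10 spread from 100 to 284 CPM in RPFs. On plain library totals the RNA fall in BM of day 4 changes sign and the RPF difference there is -0.04.

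The cytoplasmic RNA of *Igfbp2* on day 4 was 133, 128 and 103 CPM in WT, 160, 164 and 150 CPM in B, 158, 159 and 126 CPM in M, and 93.3, 100 and 65.2 CPM in BM. All B mice lay above WT and all BM mice below it, and the M mice overlapped WT. The log2 differences of *Igfbp2* RNA were 0.37 ± 0.11 (SE, adjusted p = 0.064) in B, 0.29 ± 0.12 (adjusted p = 0.11) in M and, on this scaling, -0.49 ± 0.14 (adjusted p = 0.015) in BM, which turned to 0.06 on plain library totals and to 0.34 in TPM, the deposited unit per transcript length. The B difference lost its call without mouse 3 of WT or mouse 2 of B (0.27 and 0.36, adjusted p = 0.25 and 0.19). On day 10 the WT mice were at 143, 168 and 170 CPM, the M mice at 161, 203 and 136 CPM, the B mice at 69.1, 41.9 and 132 CPM and the BM mice at 31.0, 59.2 and 61.0 CPM. Every B and BM mouse of day 10 lay below every WT mouse. Here the log2 difference was -0.97 ± 0.31 (adjusted p = 0.070) in B and -1.68 ± 0.24 (adjusted p = 0.00098) in BM, the B difference lost its call without any 1 of the WT mice or mouse 1 or 2 of B (-1.06 to -0.66, adjusted p = 0.13 to 0.19), and the BM difference was the only one of the *Igfbp2* RNA calls called in all 11 alternative settings.

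The scaling matters for the day 4 fall of *Igfbp2* in BM. TMM centres the median gene near 0, and on plain library totals the members' log2 differences from WT shifted upward by a median of 0.10 in B, 0.25 in M and 0.45 in BM for RPFs of day 4, and by 0.25, 0.25 and 0.36 on day 10. For RNA the shifts were 0.19, 0.35 and 0.55 on day 4 and 0.22, 0.18 and 0.40 on day 10. The *Igfbp2* RPF difference of BM day 4 was then -0.04, while that of BM day 10 was still -0.87 and that of B day 10 -0.87. Of the 56 called RPF and RNA differences from WT of the 9 genes, 2 changed sign on plain totals, and both were RNA of BM day 4, *Igfbp2* and *Igf1r*. Falls that kept their sign also shrank. In RPFs of BM day 4 the log2 ratio of means went from -0.48 to -0.03 for *Insr*, from -0.59 to -0.14 for *Igfbp4* and from -0.61 to -0.16 for *Igfals*. It was still -1.24 for *Igfbp1*, -0.69 for *Igf1* and -0.45 for *Igf1r*, while the *Igf2r* rise grew from 0.66 to 1.11. All changes in BM day 4 are therefore changes relative to the median gene.

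Ordered by mean RPF level, *Igfbp2* was lowest in BM day 10 (159 ± 84 CPM, SD, n = 3), B day 10 (167 ± 102) and BM day 4 (239 ± 32), which overlapped their neighbours in this order. A gap without overlap separated them from WT day 4 (335 ± 32), M day 10 (336 ± 40), M day 4 (356 ± 44), WT day 10 (369 ± 37) and B day 4 (421 ± 25), which again overlapped their neighbours. In RNA the lowest 3 groups were the same and in the same order. BM day 4 lay clear of WT day 4 in RNA, whereas B day 10 overlapped it through mouse 3, at 132 CPM. The B effect on *Igfbp2* differed between days, with a day 10 minus day 4 difference of -1.47 ± 0.40 in RPFs (SE, adjusted p = 0.033) and -1.35 ± 0.37 in RNA (adjusted p = 0.036). The corresponding BM difference was -0.75 ± 0.45 in RPFs (adjusted p = 0.24) and -1.19 ± 0.30 in RNA (adjusted p = 0.012), and without mouse 1 of BM day 10 the former was -0.40 and called (adjusted p = 0.074). Against the single mutants, BM livers of day 4 had less *Igfbp2* RPF than M (-0.59 ± 0.11, adjusted p = 0.0042) and than B (-0.78 ± 0.10, adjusted p = 0.00029). The day 10 difference of *Igfbp2* was -1.09 ± 0.42 against M (adjusted p = 0.10) and -0.05 ± 0.54 against B (adjusted p = 0.95), and without mouse 1 of BM day 10 these became -0.67 (adjusted p = 0.0072) and 0.34 (adjusted p = 0.50).

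*Igfbp1* (ENSMUSG00000020429, chr11:7147651-7152546, plus strand), the insulin-repressed binding protein, moved over the widest range of the 9 genes. Its RPFs fell in all mutants on day 4 and in M on day 10, and rose in B and BM on day 10. On day 4 the RPF values were 418, 365 and 477 CPM in WT, 284, 181 and 337 CPM in B, 200, 192 and 103 CPM in M, and 80.1, 175 and 137 CPM in BM. All mutant mice of day 4 lay below all WT mice. The log2 differences were -0.66 ± 0.19 (SE, adjusted p = 0.056) in B, -1.32 ± 0.21 (adjusted p = 0.0017) in M and -1.66 ± 0.23 (adjusted p = 0.00015) in BM. The B call was lost without mouse 1 or 3 of WT, at -0.67 and -0.56 (adjusted p = 0.15 and 0.20). In 1 fit over all 24 mice neither the B call nor the M call passed (adjusted p = 0.79 and 0.22), while the BM call did.

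WT mice of day 10 spread from 32.6 to 175 CPM of *Igfbp1* RPFs, at 32.6, 175 and 65.3 CPM for mice 1 to 3. The M mice were at 10.3, 16.6 and 29.5 CPM, all below WT, and the B mice at 254, 121 and 627 CPM, overlapping WT. The BM mice were at 318, 3425 and 4604 CPM, all above WT, with mouse 1 far below the other two. The log2 difference was -2.27 ± 0.59 (adjusted p = 0.044) in M, 1.88 ± 0.67 (adjusted p = 0.086) in B and 4.93 ± 1.04 (adjusted p = 0.0092) in BM. In BM the difference became 5.46 (adjusted p = 1.1e-05) without mouse 1, and the BM call held in all 11 settings, whereas the B call held in 5 of 11, and without mouse 3 of B the difference was 1.02 (adjusted p = 0.22), without mouse 1 of B 2.04 (0.11) and without mouse 1 or 3 of WT 1.46 and 1.68 (0.22 and 0.26). The M call was lost without mouse 2 of WT, at -1.37 (adjusted p = 0.11), and without mouse 1 or 2 of M, at -1.98 and -2.20 (0.12 and 0.11). The RNA of *Igfbp1* gave 2.17 ± 0.61 (adjusted p = 0.041) in B, -2.56 ± 0.60 (adjusted p = 0.023) in M and 5.1 ± 1.0 (adjusted p = 0.0053) in BM, and in BM mice it was at 171, 1766 and 2787 CPM. The RNA call in B was lost in DESeq2 (adjusted p = 0.16) and without mouse 1 or 3 of WT (1.75 and 1.92, adjusted p = 0.14 and 0.17).

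*Igfbp1* also differed between the WT mice of the 2 days, and the mutants of each day were compared with the WT mice of that day alone. Its RPFs were lower on day 10 by a log2 difference of -2.21 ± 0.44 (SE, adjusted p = 0.025) and its RNA by -2.09 ± 0.43 (adjusted p = 0.028). It was the only member called among WT mice, 1 of 9 in either library type, beside 4.44% of all genes in RPFs and 2.32% in RNA, and the call was lost without mouse 3 of WT day 10 (-2.03 in RPFs and -1.84 in RNA, adjusted p = 0.11 and 0.12) and in RNA also without mouse 3 of WT day 4 (-1.95, adjusted p = 0.13). The *Igfbp1* day differences of the genotype effects in RPFs were 2.54 ± 0.79 (adjusted p = 0.054) for the B effect, -0.95 ± 0.69 (adjusted p = 0.62) for the M effect and 6.59 ± 1.12 (adjusted p = 0.0015) for the BM effect. Between mice of BM day 10, other genes that respond to insulin or fasting moved with *Igfbp1*: RPFs of *Irs2*, an insulin receptor substrate, were at 22.3, 158 and 308 CPM and those of *Ppargc1a*, a coactivator of gluconeogenic genes, at 27.4, 173 and 232 CPM, again lowest in mouse 1. The summed RPF level of the 10 insulin and fasting responsive genes ranged from 2415 to 6646 CPM in BM day 10 and from 3496 to 4413 CPM in WT day 10, and from 6053 to 8316 CPM in WT day 4. The mice had free access to food, feeding state at harvest is not given, and the part of these genes in the result was not tested.

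*Igfbp4* (ENSMUSG00000017493, chr11:98932064-98945218, plus strand), a binding protein that restrains IGF1 until it is cleaved, fell in M on both days and in BM on day 4. Its RPFs on day 4 were 211, 237 and 223 CPM in WT, 174, 172 and 222 CPM in B, 162, 166 and 148 CPM in M, and 136, 147 and 161 CPM in BM. All M and BM mice of day 4 lay below WT, and B overlapped WT. The log2 differences were -0.46 ± 0.08 (SE, adjusted p = 0.0022) in M and -0.57 ± 0.09 (adjusted p = 0.00036) in BM, beside -0.25 ± 0.11 (adjusted p = 0.20) in B. On plain library totals the BM difference was -0.14. On day 10 the values were 198, 211 and 248 CPM in WT, 315, 293 and 211 CPM in B, 151, 142 and 165 CPM in M, and 209, 131 and 105 CPM in BM. In B the difference pointed upward and was not called (0.30 ± 0.16, adjusted p = 0.23), with the mice overlapping WT. The M mice all lay below WT (-0.52 ± 0.12, adjusted p = 0.029, lost without mouse 3 of WT at -0.42 with adjusted p = 0.11 and without mouse 1 of M at -0.51 with 0.10), while BM overlapped WT through mouse 1 (-0.58 ± 0.26, adjusted p = 0.11, or -0.90 with adjusted p = 0.00034 without it).

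*Igfbp4* RPFs carry a limit of their own. They were counted on Igfbp4-204, a transcript of 742 bases, 483 of them coding, with 13.0 to 15.9% of the gene's RNA counts, while Igfbp4-201, of 3831 bases, 762 of them coding, held the rest. Counts grow with transcript length, and in TPM, the deposited unit per length, Igfbp4-204 held 49.1 to 54.9% of the gene. The transcripts share 413 coding bases, which make up 54.2% of the longer coding sequence. The RPF count saw less than this share, because it left out codons at both ends of the coding sequence of Igfbp4-204. In RNA, which was summed over both transcripts, *Igfbp4* fell in M on day 4 (-0.57 ± 0.10, SE, adjusted p = 0.0010), in M on day 10 (-0.47 ± 0.13, adjusted p = 0.048) and, on this scaling, in BM on day 4 (-0.71 ± 0.11, adjusted p = 0.00018, which turned to 0.08 in TPM). In BM of day 10 the *Igfbp4* RNA difference was -0.01 ± 0.15 (adjusted p = 0.96). The B mice of day 10, at 945, 982 and 748 CPM of RNA, all lay above WT, at 669, 622 and 721 CPM, and this difference was not called. The M call of day 10 in RNA was lost without mouse 3 of WT or mouse 1 of M (-0.42 and -0.46, adjusted p = 0.16 and 0.17).

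*Igf1* (ENSMUSG00000020053, chr10:87693642-87772904, plus strand), the ligand itself, fell in BM on day 4 and in all mutants on day 10 in RPFs. On day 4 the RPF values were 275, 318 and 279 CPM in WT, 304, 290 and 273 CPM in B, 261, 228 and 257 CPM in M, and 138, 119 and 137 CPM in BM. The BM mice of day 4 formed a tight group well below all others, with a log2 difference of -1.12 ± 0.09 (SE, adjusted p = 3.6e-06), whereas B and M gave -0.02 ± 0.09 (adjusted p = 0.93) and -0.19 ± 0.09 (adjusted p = 0.13). In RNA the BM difference of day 4 was -0.91 ± 0.10 (adjusted p = 5.5e-06). Both *Igf1* calls held in all 11 settings.

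The day 10 values of *Igf1* RPFs were 375, 342 and 399 CPM in WT, 294, 290 and 258 CPM in B, 218, 229 and 254 CPM in M, and 126, 269 and 258 CPM in BM. Every mutant mouse of day 10 lay below every WT mouse. The log2 differences were -0.42 ± 0.11 (SE, adjusted p = 0.032) in B, -0.67 ± 0.11 (adjusted p = 0.010) in M and -0.78 ± 0.28 (adjusted p = 0.063) in BM, the last -0.51 (adjusted p = 0.0057) without mouse 1 of BM. The BM call was lost without any 1 of the WT mice, at -0.86 to -0.74 (adjusted p = 0.11 to 0.17), and the B call without mouse 3 of WT, at -0.37 (adjusted p = 0.12). The RNA difference of *Igf1* on day 10 passed the test in M (-0.66 ± 0.13, adjusted p = 0.0072) and not in B (-0.23 ± 0.16, adjusted p = 0.43) or BM (-0.45 ± 0.24, adjusted p = 0.17). Of the 7 *Igf1* transcripts in the RNA files, Igf1-202 held 68.0 to 76.8% of the counts in every mouse. At 7052 bases it is the longest of them, and counts grow with transcript length.

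*Igfals* (ENSMUSG00000046070, chr17:25084971-25100984, plus strand), which encodes the acid-labile subunit of the circulating complex, fell in BM on both days and in B on day 10. Its RPFs on day 4 were 191, 225 and 219 CPM in WT, 253, 200 and 184 CPM in B, 241, 213 and 225 CPM in M, and 121, 142 and 153 CPM in BM. Only the BM mice were separate from WT, with a log2 difference of -0.59 ± 0.10 (SE, adjusted p = 0.00090), or -0.16 on plain library totals. On day 10 the values were 271, 206 and 218 CPM in WT, 132, 164 and 108 CPM in B, 190, 216 and 168 CPM in M, and 75.7, 33.8 and 21.4 CPM in BM. The B mice lay below all WT mice and the BM mice lay below all others, with mouse 1 again closest to WT. The differences were -0.80 ± 0.17 (adjusted p = 0.012) in B, -0.28 ± 0.15 (adjusted p = 0.26) in M and -2.42 ± 0.43 (adjusted p = 0.0047) in BM, the last -3.08 (adjusted p = 8.3e-07) without mouse 1. RNA gave -0.85 ± 0.19 (adjusted p = 0.013) in B and -2.37 ± 0.31 (adjusted p = 0.00067) in BM on day 10, and on day 4 -0.60 ± 0.15 (adjusted p = 0.0063) in BM, which turned to 0.22 in TPM. In M of day 4 the *Igfals* RNA difference was 0.35 ± 0.10 (adjusted p = 0.028), a call lost without mouse 1 of M (0.33, adjusted p = 0.11).

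**Figure D2:**
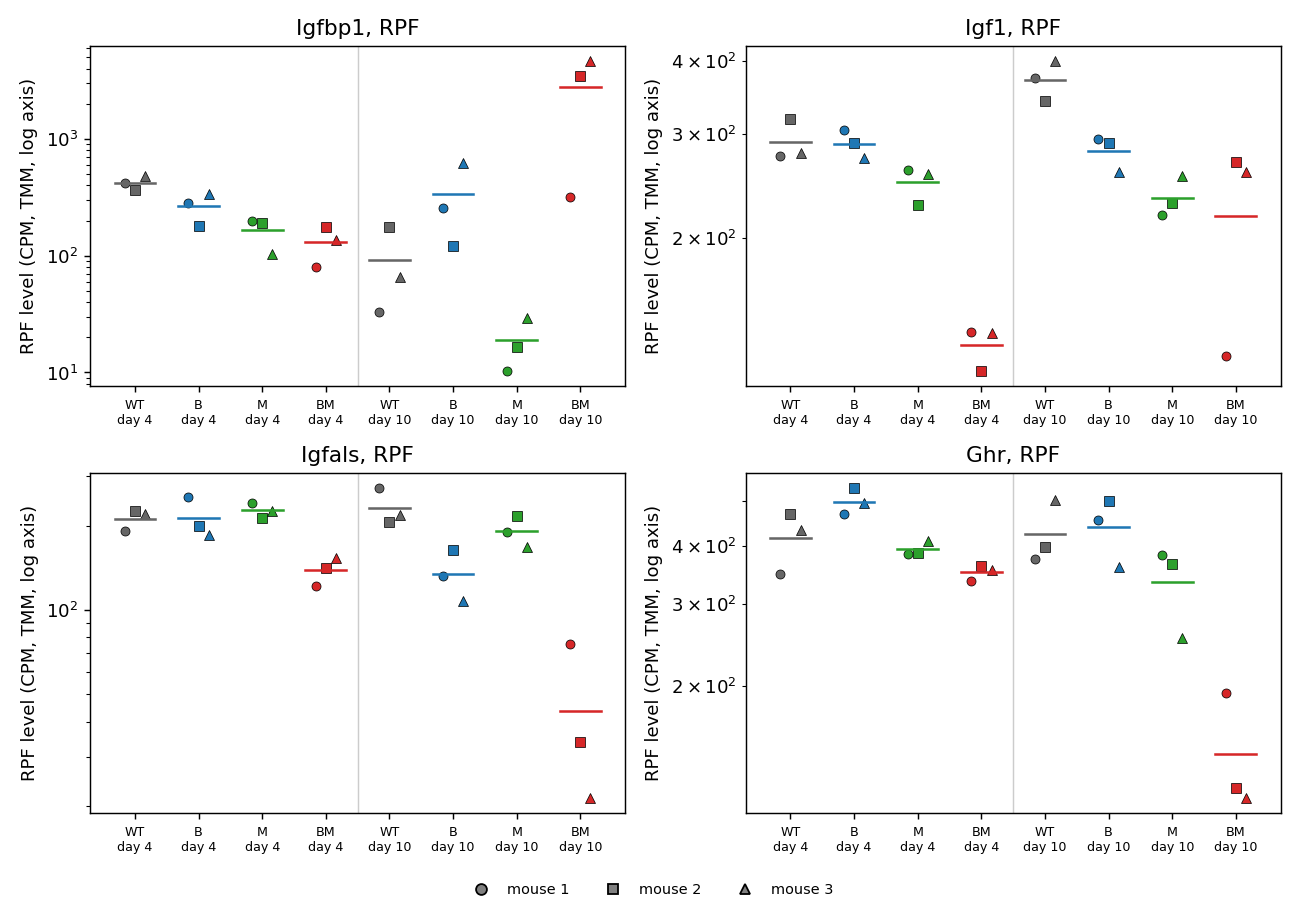
RPF levels in CPM (log axes, a scale of its own for each gene) of *Igfbp1*, *Igf1*, *Igfals* and *Ghr* in every mouse, by genotype and day, with a line at the mean of the 3 mice of a group and a marker shape for the mouse number. *Igf1* is lowest in BM of day 4 and in mouse 1 of BM day 10, *Igfals* and *Ghr* are lowest in BM of day 10, and *Igfbp1* reaches 3425 and 4604 CPM in 2 BM mice of day 10.

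*Ghr* (ENSMUSG00000055737, chr15:3347235-3613024, minus strand), the growth hormone receptor, fell in BM on day 10. The RPF values on day 10 were 376, 399 and 502 CPM in WT, 456, 500 and 360 CPM in B, 383, 366 and 254 CPM in M, and 193, 121 and 115 CPM in BM. The BM mice lay below all other mice of that day, and B and M overlapped WT. The log2 difference in BM was -1.59 ± 0.24 in RPFs (SE, adjusted p = 0.0026) and -1.50 ± 0.21 in RNA (adjusted p = 0.00095). On day 4 the values were 349, 469 and 433 CPM in WT, 468, 533 and 495 CPM in B, 385, 386 and 411 CPM in M, and 336, 362 and 356 CPM in BM, and all mutant groups overlapped WT. None of the RPF differences of *Ghr* on day 4 passed the test (adjusted p = 0.12 to 0.78), and the RNA difference in B was 0.36 ± 0.11 (adjusted p = 0.072). This RNA call of *Ghr* was lost without any 1 of the WT mice or mouse 2 or 3 of B (0.33 to 0.41, adjusted p = 0.13 to 0.23).

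The RNA of *Ghr* was spread over transcripts for the full receptor and for its shorter binding protein, and their proportions stayed close. Ghr-201 held 54.1 to 62.0% and Ghr-208, with the same 1950 coding bases, 24.3 to 27.6% of the gene's counts. The short Ghr-202 and Ghr-203, each of 891 coding bases, held 6.21 to 9.64% and 6.79 to 10.3%. Ghr-201 is 4175 bases long, Ghr-202 1213 and Ghr-203 1171, and counts grow with transcript length. The short transcripts thus hold a larger part of the molecules than of the counts. Group means of Ghr-201 ran only from 56.2 to 58.1%. Likewise the group means of Igfbp2-201, the *Igfbp2* transcript of 915 coding bases on which RPFs were counted, ran from 57.0 to 59.1% of the gene's RNA counts, the rest being Igfbp2-202, whose 474 coding bases all lie within those of Igfbp2-201.

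*Igf2r* (ENSMUSG00000023830, chr17:12901293-12988614, minus strand), the receptor that clears IGF2, was called higher than WT in 4 of 6 RPF comparisons and 5 of 6 RNA comparisons. On day 4 its RPFs were 263, 278 and 264 CPM in WT, 321, 338 and 350 CPM in B, 320, 288 and 348 CPM in M, and 422, 435 and 410 CPM in BM. All mutant mice lay above WT, and the BM mice lay above all others. The log2 differences were 0.31 ± 0.08 (SE, adjusted p = 0.032) in B, 0.28 ± 0.08 (adjusted p = 0.030) in M and 0.68 ± 0.07 (adjusted p = 3.0e-05) in BM. The B call of *Igf2r* was lost without mouse 1 or 3 of WT (0.30 in both, adjusted p = 0.13 and 0.12), and the M call without mouse 1 or 3 of M (0.27 and 0.19, adjusted p = 0.13 and 0.17). RNA gave 0.46 ± 0.11 (adjusted p = 0.031), 0.44 ± 0.10 (adjusted p = 0.0056) and 0.94 ± 0.10 (adjusted p = 5.9e-06), of which the B call was lost without mouse 3 of WT or mouse 2 of B (0.40 and 0.37, adjusted p = 0.15 and 0.13).

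*Igf2r* RPFs of day 10 were 274, 247 and 270 CPM in WT, 431, 408 and 332 CPM in B, 299, 292 and 327 CPM in M, and 657, 190 and 244 CPM in BM. The B and M mice lay above WT, whereas in BM mouse 1 lay far above and the other two below every WT mouse. The B difference was 0.55 ± 0.12 (SE, adjusted p = 0.016) and the M difference 0.21 ± 0.10 (adjusted p = 0.23). In BM the *Igf2r* difference was 0.45 ± 0.42 (adjusted p = 0.43), and without mouse 1 it turned to -0.29 (adjusted p = 0.093), so a direction cannot be given for this group. In RNA of day 10 the *Igf2r* difference was 0.57 ± 0.13 (adjusted p = 0.018) in B, 0.37 ± 0.10 (adjusted p = 0.047) in M and 0.50 ± 0.32 (adjusted p = 0.25) in BM, the last -0.05 (adjusted p = 0.74) without mouse 1. The M call held in 6 of 11 settings and was lost in DESeq2 (adjusted p = 0.11), in 1 fit over all 24 mice (adjusted p = 0.29) and without mouse 2 or 3 of WT or mouse 1 of M (0.30 to 0.40, adjusted p = 0.11 to 0.17).

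*Insr* (ENSMUSG00000005534, chr8:3172061-3329647, minus strand), the insulin receptor, fell modestly in RPFs of B on both days and of BM on day 4. Its RPFs on day 4 were 269, 253 and 258 CPM in WT, 219, 205 and 228 CPM in B, 232, 221 and 246 CPM in M, and 177, 197 and 187 CPM in BM. All mutant mice lay below WT. The log2 differences were -0.27 ± 0.08 (SE, adjusted p = 0.063) in B, -0.13 ± 0.07 (adjusted p = 0.24) in M and -0.45 ± 0.08 (adjusted p = 0.00077) in BM. On plain library totals the BM difference was -0.03. On day 10 the values were 206, 193 and 230 CPM in WT, 144, 169 and 144 CPM in B, 211, 225 and 176 CPM in M, and 186, 234 and 254 CPM in BM. Only B was separate from WT, with -0.48 ± 0.12 (adjusted p = 0.024), a call lost without mouse 3 of WT (-0.41, adjusted p = 0.10), and the B call of day 4 was lost without mouse 1 or 3 of WT or mouse 1 or 2 of B (-0.28 to -0.23, adjusted p up to 0.22). The RNA of *Insr* did not pass the test in any of the 6 comparisons with WT, with differences from -0.29 to 0.23 and adjusted p from 0.15 to 0.96.

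*Igf1r* (ENSMUSG00000005533, chr7:67601518-67883416, plus strand), the receptor through which IGF1 signals, carried very few ribosomes in these livers. Its RPF counts were 19 to 63 in all, or 1.26 to 4.89 CPM, although 253 to 462 RNA counts (52.4 to 105 CPM) were found per mouse. The only RPF call against WT was in BM of day 4, where the mice stood at 1.53, 2.10 and 1.26 CPM beside 3.22, 3.03 and 2.83 CPM in WT. All BM mice lay below WT, with a log2 difference of -0.87 ± 0.25 (SE, adjusted p = 0.015). The *Igf1r* RNA difference there was, on this scaling, -0.35 ± 0.14 (adjusted p = 0.059), which turned to 0.19 on plain totals and 0.47 in TPM and held its call in 5 of 11 settings. On day 10 *Igf1r* RPFs were 3.24, 3.99 and 3.36 CPM in WT and 3.08, 4.89 and 4.63 CPM in BM, and these 2 groups overlapped. The B mice, at 1.56, 1.98 and 3.03 CPM, and the M mice, at 2.93, 1.98 and 2.69 CPM, all lay below WT. Neither difference was called, with -0.69 ± 0.29 (adjusted p = 0.14) in B and -0.48 ± 0.23 (adjusted p = 0.21) in M. The *Igf1r* RNA difference in BM of day 10 was 0.28 (adjusted p = 0.44), and without mouse 1 it was 0.53 and called (adjusted p = 0.023).

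Counted together, the 9 genes moved in RPFs as follows. In B of day 4, 2 rose and 2 fell, beside 12.5% of all genes called, and in M of day 4, 1 rose and 2 fell, beside 33.3%. In BM of day 4, on this scaling, 1 rose and 7 fell, beside 50.9%, the exception to calls being *Ghr*. In B of day 10, 2 rose and 4 fell, beside 25.2%, in M 3 fell, beside 19.4%, and in BM 1 rose and 4 fell, beside 46.8%. The RPF median of the 9 genes was -0.57 in BM of day 4, -0.42 in B, -0.35 in M and -0.58 in BM of day 10, on the log2 scale, and -0.01 in B and -0.11 in M of day 4, while the median of all genes lay between -0.01 and 0.03. In M of day 4 and in BM of day 10 the share of the members called was near that of all genes. Without mouse 1 of BM day 10, 7 of 9 were called in that comparison, *Igfbp4* and *Igf2r* being added, both as falls, beside 66.3% of all genes called in that fit.

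In RNA the counts ran parallel. In B of day 4, 3 rose and 1 fell, beside 8.14% of all genes, in M 2 rose and 2 fell, beside 23.7%, and in BM 1 rose and 6 fell, beside 41.9%. On day 10, 2 rose and 2 fell in B, beside 15.6%, 1 rose and 3 fell in M, beside 15.7%, and 1 rose and 3 fell in BM, beside 45.7%. Without mouse 1 of BM, 2 rose and 3 fell there in RNA, beside 57.1%. Over the 54 comparisons of a member with WT, 29 were called in RPFs, 27 in RNA and 24 in both, and all 24 had the same sign in both. The RPF and RNA differences had the same sign in 47 of 54. The 6 comparisons of a day share their WT mice, so they are not independent of each other.

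**Figure D3:**
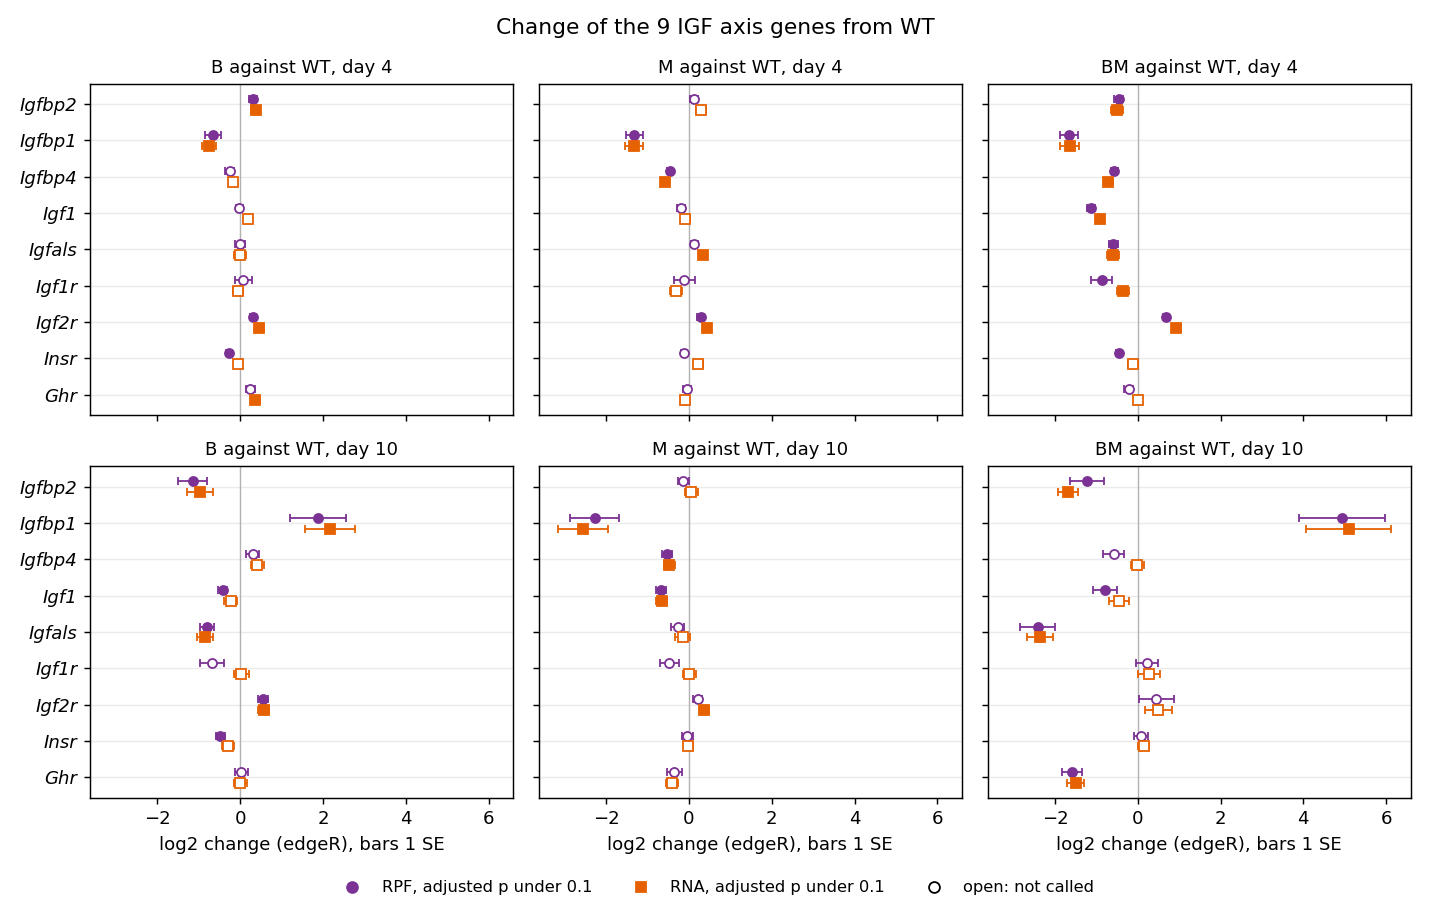
Log2 differences from WT, with bars of 1 SE and filled symbols at adjusted p under 0.1, of the 9 genes in RPFs and RNA for B, M and BM on day 4 and day 10. In BM of day 4, 7 of 9 RPF differences are called as falls and *Igf2r* as a rise, and in BM of day 10 *Igfbp1* rises by 4.93 while *Igfals* and *Ghr* fall by 2.42 and 1.59. The RNA falls of *Igfbp2* and *Igf1r* in BM of day 4 change sign on plain library totals.

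The difference between days was tested for each genotype as the day 10 effect minus the day 4 effect. For the B effect, 5 of 9 members were called in RPFs beside 17.2% of all genes and 4 in RNA beside 9.31%, with *Igfbp2* and *Igfals* lower and *Igfbp1* and *Igfbp4* higher in both. For the M effect none was called in either, beside 1.18% in RPFs and 1.20% in RNA. By edgeR the unadjusted p was under 0.05 for *Igf1* and *Igfals* in both library types, and DESeq2 called 1 member in each. For the BM effect 5 were called in RPFs beside 35.7% of all genes and 5 in RNA beside 29.9%, *Igfbp1*, *Igfals* and *Ghr* in both. With mouse 1 of BM day 10 left out, all 9 were called in RPFs beside 57.3% of all genes and 8 in RNA beside 43.5%. *Igf1* was then at 0.60 in RPFs (adjusted p = 0.0036) and 0.70 in RNA (adjusted p = 0.0012). *Igf2r* was at -0.99 in both (adjusted p = 9.2e-05 and 0.00010). *Igf1r* RNA was at 0.88 (adjusted p = 0.0076) and *Igfbp4* RPFs were at -0.35 (adjusted p = 0.098).

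In RPFs BM was also set against the single mutants. On day 4, 1 member rose and 6 fell against M, beside 38.2% of all genes, and 1 rose and 7 fell against B, beside 44.7%, with *Igf2r* the riser in both. *Igf1* fell by 0.94 ± 0.09 against M (adjusted p = 8.1e-05) and by 1.10 ± 0.09 against B (adjusted p = 1.7e-05), and *Igfals* fell by 0.72 ± 0.10 (adjusted p = 0.00065) and 0.58 ± 0.13 (adjusted p = 0.0071). On day 10, 1 member rose and 2 fell against M, beside 32.7%, and 3 rose and 3 fell against B, beside 36.5%. *Igfbp1* rose by 7.21 ± 1.06 against M (adjusted p = 0.0059) and by 3.08 ± 0.96 against B (adjusted p = 0.053). *Igfals* and *Ghr* fell against both, *Igfals* by 2.16 ± 0.43 and 1.62 ± 0.43 (adjusted p = 0.015 and 0.033), and *Ghr* by 1.25 ± 0.27 and 1.61 ± 0.24 (adjusted p = 0.019 and 0.0069). Against B, the *Igfbp1* call was lost without mouse 1 or 2 of B or mouse 2 or 3 of BM (2.51 to 2.92, adjusted p up to 0.16) and the *Igfals* call without mouse 2 of either group (-1.45 and -1.44, adjusted p = 0.11 and 0.12). *Igfbp4*, *Igf1r* and *Insr*, the other calls against B on day 10, were each lost without 1 of 4 or more single mice (adjusted p up to 0.21). On day 4 the *Ghr* and *Igf1r* calls against M and the *Igfbp4* call against B were also lost without 1 of several mice. The number called against M on day 10 was 7 instead of 3 without mouse 1 of BM, beside 59.2% of all genes instead of 32.7%. *Igfbp2*, *Igfbp4* (-0.34, adjusted p = 0.076), *Igf1r* (0.94, adjusted p = 0.015) and *Igf2r* (-0.46, adjusted p = 0.030) were added. *Igf2r* against B was then -0.81 (adjusted p = 0.0038) instead of -0.10 (adjusted p = 0.88), in a fit that called 61% of all genes.

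Translation efficiency (TE), the ratio of RPFs to RNA tested as the interaction of genotype and library type, was not called for any member in any of the 6 comparisons with WT. The shares of all genes called were 0.0488%, 0.971% and 2.23% for B, M and BM on day 4 and 0.0564%, 0% and 0.259% on day 10. Of the 54 member tests by edgeR, 3 had an unadjusted p under 0.05, namely *Insr* in M and BM of day 4 (log2 differences of -0.35 ± 0.12 and -0.35 ± 0.15, SE) and *Igf2r* in BM of day 4 (-0.26 ± 0.12), with adjusted p from 0.42 to 0.45. In M of day 10, where edgeR called no gene, 334 of 10453 genes had an unadjusted p under 0.05, DESeq2 called 2 higher and 1 lower, and the fit that keeps both libraries of a mouse together called 28 higher and 6 lower.

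Both libraries of a mouse came from 1 lysate, and the fit with a term for the mouse changed 3 of these calls. *Insr* TE was then called in M of day 4 (-0.36, adjusted p = 0.057) and in BM of day 4 (-0.35, adjusted p = 0.041), and *Igfbp4* TE in BM of day 10 (-0.64, adjusted p = 0.084). In that fit the shares of all genes called were 0.274%, 2.65% and 6.17% for B, M and BM on day 4 and 2.6%, 0.325% and 5.21% on day 10. The log2 TE of *Insr* on day 4 was 0.32, 0.57 and 0.47 in WT, -0.01, 0.05 and 0.15 in M, and 0.18, -0.08 and 0.16 in BM. All M and BM mice lay below WT. For *Igfbp4* the RPFs were counted on the transcript with the smaller share of RNA counts, as given above. The TE of *Igfbp2* in BM of day 10 was 1.05, 1.72 and 1.85 beside 1.26, 1.08 and 1.27 in WT, with a difference of 0.43 ± 0.52 (adjusted p = 0.81). Without mouse 1 this *Igfbp2* difference was 0.56 (adjusted p = 0.049), and that of *Igfbp4* was -0.79 (adjusted p = 0.015), so that 2 members rather than 0 were called, beside 21.5% of all genes rather than 0.259%.

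The genes stood far apart in TE itself. Among 11279 genes ranked within each mouse by the ratio of RPF to RNA CPM, the median percentile over 24 mice was 97.9 for *Igfals*, 94.3 for *Igf2r*, 92.6 for *Igfbp2*, 88.2 for *Igfbp1* and 62.7 for *Insr*. It was 22.3 for *Ghr*, 13.9 for *Igf1*, 13.8 for *Igfbp4* and 0.598 for *Igf1r*, which ranged only from 0.133 to 1.02. This ratio depends on how much of a transcript is coding, and only 6.51% of Igf1-202 is. In RPF CPM per kilobase of coding sequence over RNA TPM, a ratio chosen after seeing the data and ranked among 8824 genes, *Igfals* was at 94.9, *Igfbp1* at 87.7, *Igf2r* at 81.2, *Igfbp2* at 76.6, *Insr* at 69.3, *Igf1* at 62.4 and *Igfbp4* at 45.4. *Ghr*, at 8.53, and *Igf1r*, at 0.238, stayed low on this ratio too. The TPM of *Ghr* here includes its short transcripts, while its RPFs were counted on Ghr-201.

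**Figure D4:**
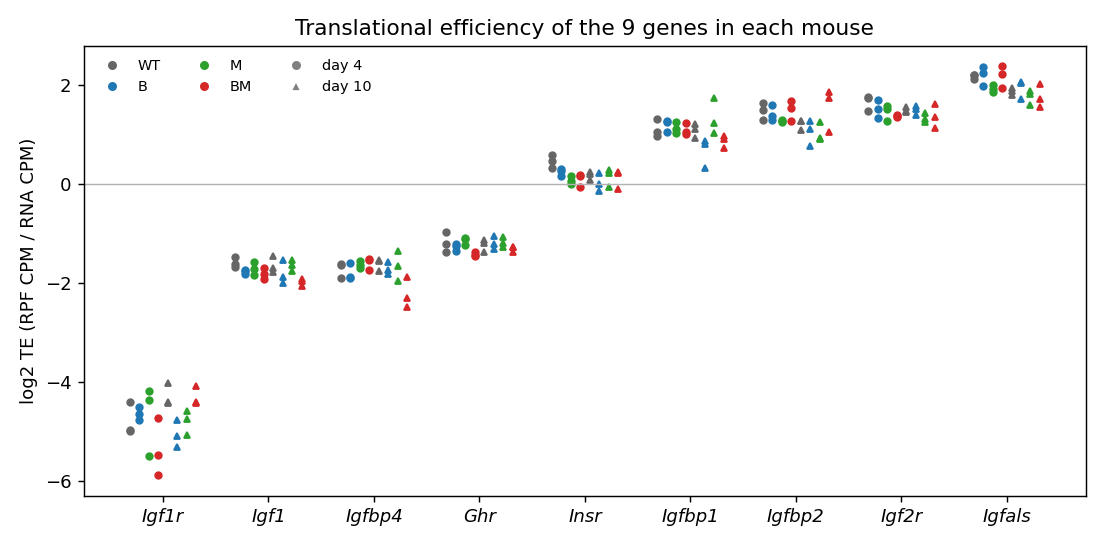
Log2 TE (RPF CPM over RNA CPM) of the 9 genes in every mouse, coloured by genotype, with circles for day 4 and triangles for day 10. The genes are spread from about -5 for *Igf1r* to about 2 for *Igfals*, with *Igf1r* apart below all others.

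Per length, the order of the genes in WT livers of day 4 was as follows. In RNA, *Ghr* (419 TPM), *Igfbp4* (387 TPM) and *Igf1* (360 TPM) were highest, followed by *Igfbp1* (157 TPM) and *Igfbp2* (133 TPM), with *Insr* (22.2 TPM), *Igfals* (20.6 TPM), *Igf2r* (10.6 TPM) and *Igf1r* (8.08 TPM) far below. In RPF CPM per kilobase of coding sequence the ligand led, with *Igf1* at 788, *Igfbp1* at 579, *Igfbp4* at 569, *Igfbp2* at 406, *Ghr* at 224, *Igfals* at 123, *Insr* at 64.5, *Igf2r* at 36.4 and *Igf1r* at 0.753. The binding proteins and the ligand thus stood above all 4 receptors in RPF level per length.

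Other IGF genes gave few measurable members. Of the 10 in a list of ligands, binding proteins and proteases, 5 or 6 passed the filter on low counts. Their RPF calls stand beside 12.5%, 33.3% and 50.9% of all genes in B, M and BM on day 4 and beside 25.2%, 19.4% and 46.8% on day 10. In RPFs none rose and 1 of 5 fell in B and in M of day 4, 3 of 5 fell in BM of day 4, 3 of 5 in B of day 10 and 2 of 5 in M of day 10, and in BM of day 10, 1 rose and 4 of 6 fell. *Igfbp3*, the main carrier of IGF1 in the circulating complex and in liver a product of non-parenchymal cells, fell in BM of day 4 (log2 difference -0.88 ± 0.19, SE, adjusted p = 0.0035) and in B of day 10 (-1.39 ± 0.17, adjusted p = 0.0011), and *Igfbp7* fell in BM of day 4 by 0.95 ± 0.09 (adjusted p = 1.3e-05). The summed RPFs of 6 endothelial markers were at 627 to 706 CPM in WT and 500 to 563 CPM in BM of day 4, with 4 of 6 called lower. Those of 6 Kupffer cell markers were at 576 to 672 and 335 to 354 CPM, with 6 of 6 called lower. Those of 6 stellate cell markers were at 692 to 741 and 435 to 548 CPM, with 3 of 6 called lower. Of all genes, 24.7% were called lower in BM of day 4. In B of day 10 the stellate markers were at 726 to 850 CPM in WT and 404 to 602 CPM in B, with 4 of 6 called lower. The endothelial markers were at 613 to 740 and 503 to 617 CPM, with 3 of 6 called lower. The Kupffer cell markers were at 444 to 636 and 548 to 755 CPM, with 1 called higher and 0 lower. No endothelial or Kupffer cell marker was at 0 in all mice, and the part of these cells in the results was not tested. *Igf2*, the fetal ligand, had 0 to 5 RPFs in every mouse of the other 7 groups and 225 to 469 in BM of day 10, at 13.1, 22.7 and 38.8 CPM, so that all BM mice of day 10 lay above all other mice.

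Growth hormone signalling genes and male-biased genes were counted beside the shares of all genes called in RPFs, 12.5%, 33.3% and 50.9% in B, M and BM on day 4 and 25.2%, 19.4% and 46.8% on day 10. Of 9 signalling genes tested in RPFs, none was called in B or M of day 4 or in M of day 10, 1 fell in BM of day 4, 1 rose and 4 fell in B of day 10 and 6 fell in BM of day 10. In BM of day 10 these included *Cish* (-3.63 ± 0.39, SE, adjusted p = 0.00077), a feedback inhibitor induced by STAT5, *Onecut1* (-3.0 ± 0.28, adjusted p = 0.00040), a hepatocyte transcription factor, and *Jak2* (-0.97 ± 0.35, adjusted p = 0.060), the kinase bound to the receptor. In B of day 10, where the *Ghr* groups overlapped, *Bcl6* fell by 2.25 ± 0.23 (adjusted p = 0.00041), *Cish* by 1.13 ± 0.18 (adjusted p = 0.0039) and *Stat5b*, the main mediator of growth hormone action in liver, by 0.62 ± 0.10 (adjusted p = 0.0036). Of 5 male-biased genes that depend on pulsatile growth hormone, 2 rose in B and 2 fell in M of day 4, 5 fell in BM of day 4, 3 in B and 2 in M of day 10 and 4 in BM of day 10. Leaving out mouse 1 of BM day 10, 66.3% of all genes were called in that group. Then 1 signalling gene rose, 7 signalling genes fell and 4 male-biased genes fell. *Cish*, *Onecut1* and *Jak2* were at -3.29, -2.83 and -1.45 (adjusted p = 1.2e-06, 3.1e-06 and 0.00026). *Hsd3b5* was at 1829 to 2345 RPFs in WT of day 10 and 4 to 5 in BM, and *Elovl3* at 2180 to 5215 and 7 to 11.

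Insulin and IGF receptor signalling genes numbered 16. The shares called among all genes were 12.5%, 33.3% and 50.9% in B, M and BM on day 4 and 25.2%, 19.4% and 46.8% on day 10. In RPFs, 2 rose and 1 fell in B of day 4, 2 fell in M, and 2 rose and 3 fell in BM of day 4, and on day 10, 4 rose in B, 3 fell in M, and 4 rose and 3 fell in BM. *Irs2* fell in BM of day 4 (-1.46 ± 0.21, SE, adjusted p = 0.00022) and rose in BM of day 10 (3.32 ± 0.86, adjusted p = 0.020), as *Igfbp1* did, and *Foxo1*, a forkhead factor inhibited by insulin, rose in BM of day 10 by 1.34 ± 0.32 (adjusted p = 0.015). *Irs1* rose in BM of day 4 by 0.71 ± 0.16 (adjusted p = 0.0040) and in B of day 10 by 0.59 ± 0.17 (adjusted p = 0.046). Of the insulin and fasting responsive genes, 2 of 10 rose and 3 fell in B of day 4, 1 of 9 rose and 2 fell in M, and 2 of 9 rose and 3 fell in BM, and on day 10, 3 of 10 rose and 3 fell in B, 2 of 9 fell in M, and 3 of 9 rose and 3 fell in BM. Leaving out mouse 1 of BM day 10, 6 of the 16 signalling genes rose and 5 fell there, beside 66.3% of all genes called. *Irs2* was then at 3.84 (adjusted p = 1.0e-05) and *Foxo1* at 1.65 (adjusted p = 2.9e-06). In the same fit 5 of 10 insulin and fasting responsive genes rose and 4 fell. *Pck1*, the gluconeogenic enzyme, fell in BM of day 4 by 4.16 ± 0.36 (adjusted p = 6.2e-06). On day 10 its RPFs were at 649, 3548 and 3922 CPM in BM and 1124 to 1241 CPM in WT. By edgeR without mouse 1 of BM the day 10 difference was 1.63 (adjusted p = 3.7e-06).

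The genes most like *Igfbp2* were sought among 12000 genes by Pearson's r of log2 RPF CPM over the 24 mice, as a description only, since mice of a group share their genotype. They were *Amdhd1* (r = 0.896), *Aldh8a1* (r = 0.887), *Gls2* (r = 0.878), *Oaz1* (r = 0.873) and *Cyp2f2* (r = 0.869). In RNA the same genes gave 0.885, 0.838, 0.830, 0.758 and 0.859, and in RPFs without mouse 1 of BM day 10 they gave 0.871, 0.828, 0.851, 0.804 and 0.827. The set itself changed with the choice. In RNA the most alike were *Szrd1*, *Amdhd1*, *Paox*, *Aspg* and *Arhgap6*. In RPFs without mouse 1 of BM day 10 they were *Amdhd1*, *Zdhhc20*, *Gls2*, *Gas2* and *A2m*. *Amdhd1* is an enzyme of histidine breakdown and *Gls2* the liver glutaminase, and *Gls2* and *Cyp2f2* are markers of zone 1, the hepatocytes around the portal vein. *Cyp2f2* went from 2656 ± 108 CPM (SD, n = 3) in WT to 423 ± 98 CPM in BM of day 4, and from 2359 ± 354 to 77.7 ± 46.9 CPM in B and 22.9 ± 11.3 CPM in BM of day 10, a far wider range than that of *Igfbp2*. Unlike *Igfbp2*, *Cyp2f2* and *Amdhd1* had lower mean levels than WT in B of day 4.

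Markers of the liver zones were counted beside calls in 12.5% and 50.9% of all genes in B and BM on day 4 and in 25.2% and 46.8% on day 10. All 10 zone 1 markers fell in BM of day 4 and in B of day 10, and 3 of 10 fell in B of day 4. In BM of day 10, 3 fell and 2 rose. Without mouse 1 of BM day 10, 4 fell and 5 rose, in a fit that called 66.3% of all genes. Their summed RPF level was 20654 to 23153 CPM in WT, 14926 to 18389 CPM in B and 7998 to 8759 CPM in BM on day 4. On day 10 it was 21215 to 22018 CPM in WT, 11702 to 12401 CPM in B and 15592 to 41199 CPM in BM. Of 10 zone 3 markers, 9 and 10 were called higher in B and BM of day 4 and 9 and 8 on day 10. Their sum was 7500 to 8088 CPM in WT, 17289 to 22079 CPM in B and 15364 to 18505 CPM in BM on day 4. On day 10 these zone 3 sums were 5697 to 10107, 16441 to 26004 and 18843 to 21890 CPM. The 4 zone 2 markers summed to 1144 to 1416 CPM in WT and 280 to 360 CPM in BM on day 4. On day 10 they summed to 693 to 1224 CPM in WT, 234 to 294 CPM in B and 320 to 1597 CPM in BM. None of the 10 zone 1 markers was at 0 in all mice, and the part of these zones in the levels of *Igfbp2* was not tested. Of the other members, the r with *Igfbp2* was 0.494 for *Igfals*, 0.479 for *Insr*, 0.414 for *Igf1* and -0.591 for *Igf2r*. Without mouse 1 of BM day 10 these were 0.452, 0.509, 0.196 and -0.346, and in RNA 0.682, 0.169, 0.255 and -0.442.

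**Figure D5:**
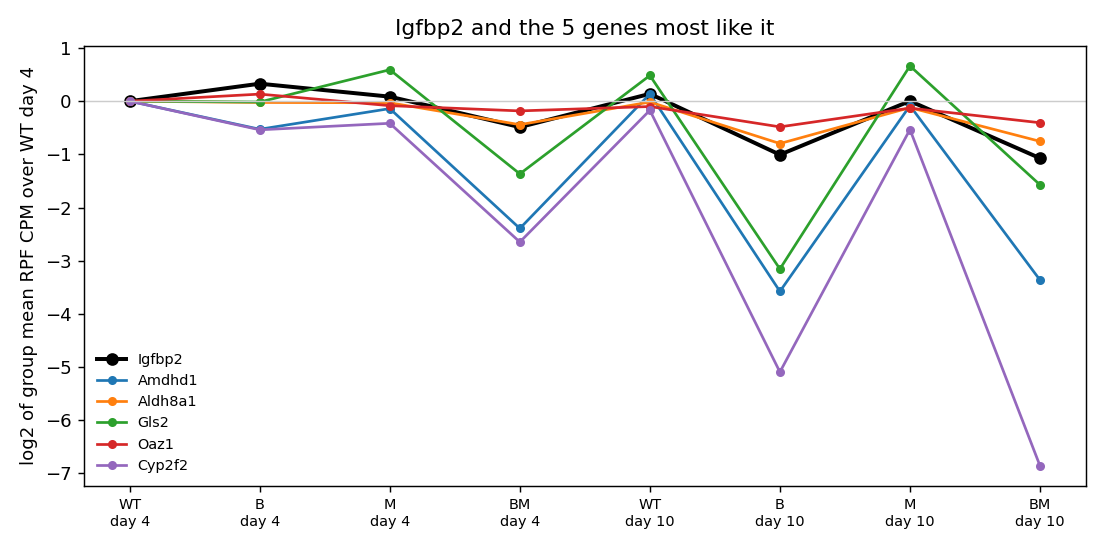
Mean RPF level of each group of 3 mice over that of WT day 4, on the log2 scale, for *Igfbp2* (black) and the 5 genes most like it, with lines joining the groups only to lead the eye. All 6 genes lie below WT in BM of day 4, B of day 10 and BM of day 10, where *Cyp2f2* falls far lower than *Igfbp2* and *Oaz1* less.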

How the data were processed

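Livers of 24 mice, 3 for each of 4 genotypes and 2 days, gave 24 RPF and 24 cytoplasmic RNA libraries. RPF values were the deposited raw counts per coding sequence. The authors had trimmed the reads, removed rRNA and tRNA, aligned them to the most abundant transcript of each gene of GENCODE vM27 (GRCm39), collapsed them by molecular identifier, and left out the first 20 and last 10 codons. RNA values were the deposited expected counts of RSEM 1.3.3 with Bowtie2 2.3.5.1 per isoform, summed here per gene and rounded. The TPM that the authors deposited was used only for levels per length. Deposited FPKM was not used.

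Counts were scaled by TMM within a library type and tested by edgeR 4.0.16 (R 4.3.3, limma 3.58.1) with the quasi-likelihood F test, over the mice of the groups compared, after filterByExpr (minimum count 10, total 15). Benjamini-Hochberg adjustment covered all genes tested, and calls were made at adjusted p under 0.1. TE was the interaction of genotype and library type. In TE, each RPF library is paired with the RNA library of its own mouse by the labels, and their deviations from group means correlated at 0.156 to 0.605, so the fit with a term for the mouse is given beside each call it changed. The fits were tested on simulated counts. Depth was 9742197 to 14380713 RPFs and 3254141 to 6540116 RNA counts per library. The day 4 and day 10 mice were analysed by day, and each p of RPFs or RNA measures the spread between individual mice. In the main TE fit both libraries of a mouse enter as separate observations, so its p measures the spread between libraries. Alternatives were median-of-ratios size factors, no filter, DESeq2 1.42.0, 1 fit over all 24 mice, a replicate block and leaving out each mouse. Plain library totals, the ratio per length, list counts without mouse 1 of BM day 10 and TPM shares of *Igfbp4* transcripts were added after seeing the data.

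The 9 members and all gene lists were chosen with earlier results of these data known. Named from each other list were called genes, largest change first, at most 4 per list and comparison, besides the members, the 5 genes most like *Igfbp2* in each ranking and 6 genotype checks. *Igf2*, *Hsd3b5* and *Elovl3* are given as counts because a group lay near 0. Annotation and sequences came from GRCm39.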

Additional observations from a re-analysis of the deposited data

Results flagged for a closer look

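The results below stand out because the effect of a genotype against WT differed between day 4 and day 10 by the interaction test of edgeR with Benjamini-Hochberg adjustment, given as the day 10 minus day 4 log2 difference (3 mice per group). The time after induction and the date of injection cannot be told apart in any of them.

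For the B effect in RPFs, *Igfbp2* gave -1.47 (adjusted p = 0.033), *Igfbp1* 2.54 (adjusted p = 0.054), *Igfbp4* 0.56 (adjusted p = 0.097), *Igf1* -0.40 (adjusted p = 0.082) and *Igfals* -0.79 (adjusted p = 0.040). In RNA the B effect of *Igfbp2* gave -1.35 (adjusted p = 0.036), *Igfbp1* 2.92 (adjusted p = 0.020), *Igfbp4* 0.58 (adjusted p = 0.061) and *Igfals* -0.85 (adjusted p = 0.051). The *Igfbp2* difference in RPFs was called in 17 of 17 alternative settings and that in RNA in 16 of 17, whereas in RPFs *Igfbp4* was called in 4 of 17, *Igf1* in 6, *Igfbp1* in 11 and *Igfals* in 13. In RNA *Igfbp4* was called in 10 of 17, *Igfals* in 12 and *Igfbp1* in 17.

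For the BM effect in RPFs, *Igfbp1* gave 6.59 (adjusted p = 0.0015), *Igfals* -1.82 (adjusted p = 0.013), *Igf1r* 1.11 (adjusted p = 0.037), *Insr* 0.55 (adjusted p = 0.042) and *Ghr* -1.36 (adjusted p = 0.0041). In RNA the BM effect of *Igfbp2* gave -1.19 (adjusted p = 0.012), *Igfbp1* 6.74 (adjusted p = 0.00063), *Igfbp4* 0.70 (adjusted p = 0.018), *Igfals* -1.77 (adjusted p = 0.0028) and *Ghr* -1.51 (adjusted p = 0.00044). For *Igfbp1* both differences include the fall among WT mice from day 4 to day 10. Without mouse 1 of BM day 10 all 9 members were called in RPFs, beside 57.3% of all genes. The *Insr* difference lost its call without mouse 1 of BM day 4 or mouse 2 or 3 of BM day 10 (0.43 to 0.50, adjusted p = 0.10 to 0.11), and the other BM differences named here were called in 17 of 17 settings.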

How the results depend on the processing

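With 3 mice per group many calls of the 9 genes lay near the threshold, and of 29 calls against WT in RPFs and 27 in RNA, 13 and 9 were lost on leaving out some 1 mouse, 9 and 10 in 1 fit over all 24 mice, 1 and 5 in DESeq2 and 2 and 1 with the replicate block. Median-of-ratios size factors moved none of the 30 counts of members called by over 1.5 times. The share of all genes called also differed between fits. Without mouse 1 of BM day 10 it went from 46.8% to 66.3% for RPFs of BM against WT, and from 0.259% to 21.5% for TE. The counts below are not set against these shares, and the cause of their changes was not tested.

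In 1 fit over all 24 mice the members called were 0 in place of 4 in B of day 4 in RPFs and in RNA, 1 in place of 3 (RPFs) and of 4 (RNA) in M of day 4, 0 in place of 1 between WT mice of both days in either library type, 1 in place of 5 for the B day difference in RPFs, 4 in place of 7 and of 8 for BM against M and B on day 4, and 5 in place of 3 for BM against M on day 10. DESeq2 called 1 in place of 0 for the M day difference in RPFs and in RNA and 3 in place of 1 between WT mice in RPFs. Without a filter on low counts the M day difference in RNA gave 2 in place of 0, WT mice in RNA 4 in place of 1 and the B day difference in RPFs 3 in place of 5. With the replicate block, M of day 4 in RNA gave 7 in place of 4, the B day difference in RPFs 3 in place of 5, and TE 1 in place of 0 in M and BM of day 4 and in BM of day 10. Replicate numbers did not pair mice across genotypes, since in 0 of 18 comparisons every pair correlated over 0.1, and TE was blocked by mouse.

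Leaving out 1 mouse, the members called in RPFs ranged from 0 to 4 in B, 2 to 3 in M and 8 to 9 in BM on day 4, and from 2 to 7, 1 to 3 and 3 to 7 on day 10. In RNA they ranged from 1 to 4, 3 to 7 and 6 to 7 on day 4, and from 2 to 5, 2 to 4 and 4 to 5 on day 10. TE stayed at 0 except for 0 to 2 in BM of day 10. Between WT mice the range was 0 to 2 in RPFs and 0 to 3 in RNA. For the day differences of B, M and BM it was 1 to 5, 0 to 1 and 4 to 9 in RPFs and 2 to 4, 0 to 1 and 5 to 8 in RNA. For BM against M and B it was 5 to 7 and 7 to 8 on day 4 and 3 to 7 and 1 to 7 on day 10. Without mouse 1 of BM day 10, 3 differences turned: *Igf2r* to -0.29 against WT and -0.46 against M, and the *Igfbp4* day difference of BM to -0.35. Over all mice left out, these values ranged from -0.29 to 0.75, from -0.46 to 0.57 and from -0.35 to 0.18.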
